A study of Mus musculus with 6 samples.

Results

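The genes described here are 9 red cell genes measured in embryonic mouse lung. They are the embryonic globins Hba-x, Hbb-y and Hbb-bh1, the adult alpha globins Hba-a1 and Hba-a2, the transcription factors Gata1 and Klf1, the haem synthesis gene Alas2 and the membrane anion exchanger gene Slc4a1. They were chosen by symbol, through their Ensembl identifiers, and all 9 were among the 14162 genes of the deposited tables. The samples were 6 RNA-seq libraries of lung at E12.5, a stage of mid-gestation. In 3 of them, labelled ShhCre-Dnmt1KO and here called Dnmt1KO, Dnmt1 was deleted with Cre recombinase expressed from Shh, a gene active in the endoderm that forms the airway epithelium. Dnmt1 encodes the enzyme that copies DNA methylation onto new strands. The other 3 libraries, labelled Wild-type Control, are here called WT. The labels mention no sorting or perfusion, and they name Cre for the Dnmt1KO group only. Nothing in them says that the 3 libraries of a group are separate embryos. The p-values therefore reflect only the spread among these libraries. That spread may be technical, except that Dnmt1KO replicate 1 differed from the others in Y-linked reads, as given below.

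Red cells reach the midgestation lung in the blood. The first, primitive wave arises in the yolk sac and carries haemoglobin of embryonic chains, namely zeta from Hba-x together with epsilon-y from Hbb-y or beta-h1 from Hbb-bh1. As primitive cells mature in the circulation they shift from Hbb-bh1 towards Hbb-y and from Hba-x towards the adult alpha genes. The later, definitive wave from the fetal liver uses adult alpha and beta chains. Red cells descend from mesoderm, outside the endodermal lineage in which Shh is active. In whole lung RNA, fewer red cells and less of a transcript per red cell cannot be told apart.

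The proximal promoters of embryonic and adult globins are shown first, because the comparison of these genes is the centre of what follows, and that of Alas2 is added as a red cell gene outside the globin loci. Each is the 130 bases before the RefSeq start site in GRCm38.p6, written 5′ to 3′ on the gene's strand. Capitals mark GATAA (the core bound by GATA factors), CACCC (the box bound by Klf1 and its relatives), CCAAT and TATAA, each searched on both strands, so that a capital stretch can be the reverse complement. Hba-x lay at chr11:32276470-32276599 on the plus strand, Hba-a1 at chr11:32283542-32283671 on the plus strand, Hbb-y at chr7:103853208-103853337 on the minus strand, Hbb-bs at chr7:103827929-103828058 on the minus strand and Alas2 at chrX:150547287-150547416 on the plus strand.
Hba-x: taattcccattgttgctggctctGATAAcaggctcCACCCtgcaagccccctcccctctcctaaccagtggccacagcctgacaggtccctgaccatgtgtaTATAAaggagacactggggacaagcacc
Hba-a1: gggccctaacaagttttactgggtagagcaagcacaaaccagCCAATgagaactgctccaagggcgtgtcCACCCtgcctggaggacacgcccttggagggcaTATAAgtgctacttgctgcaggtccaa
Hbb-y: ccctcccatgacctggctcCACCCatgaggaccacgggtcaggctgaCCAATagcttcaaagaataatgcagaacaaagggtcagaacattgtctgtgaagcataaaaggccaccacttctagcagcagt
Hbb-bs: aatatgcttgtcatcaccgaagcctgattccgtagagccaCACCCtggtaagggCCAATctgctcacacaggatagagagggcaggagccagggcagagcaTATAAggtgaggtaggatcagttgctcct
Alas2: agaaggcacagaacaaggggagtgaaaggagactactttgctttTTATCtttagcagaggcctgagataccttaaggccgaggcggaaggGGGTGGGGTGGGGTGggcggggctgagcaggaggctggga

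All 5 windows held CACCC. In the full 250 bases before the start site, CACCC was found in 52.0% of the 32851 RefSeq promoters, GATAA in 22.6%, CCAAT in 33.8% and TATAA in 22.8%. Motifs can overlap, since CCAAT can begin in the last bases of CACCC and TATAA shares 4 bases with its own reverse complement where both occur in TTATAA. Over 250 bases all 5 genes also had a GATAA, and in Hba-x it began 107 bases before the start. Of the promoters not shown, Hba-a2, Klf1 and Hbb-bt had a GATAA over 250 bases and Gata1 had none. CpG pairs, where DNA methylation is placed, numbered 1 in Hba-x, 1 in Hbb-y, 2 in Hbb-bs, 4 in Hba-a1 and 4 in Alas2, against a median of 6 over all promoters. Of the promoters not shown, the adult beta gene Hbb-bt had 0, Gata1 2, Klf1 3 and Hba-a2 4, so the embryonic genes were not the lowest. Fewer CpG pairs than in Hba-x or Hbb-y were found in 7.87% of promoters. A motif match describes the letters only.

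Adult alpha globin is made from a pair of nearly identical genes, which limits how their reads can be told apart. The coding sequences of Hba-a1 and Hba-a2 in the GENCODE M21 annotation of GRCm38 had 426 bases each without the stop codon and differed at 1 base. That difference, C381T, is written with the Hba-a1 base first and counted from the A of the start codon. It is capital in the 29 coding bases around it.
Hba-a1: catgcctctctggaCaaattccttgcctc
Hba-a2: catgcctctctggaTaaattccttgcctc
Of all 50-base stretches of either coding sequence, 87.8% were also present in the other. The adult beta genes Hbb-bs and Hbb-bt also differed at 1 of 441 coding bases, and 93.6% of their stretches were shared. Embryonic genes were far from these, with 61.7% of bases the same between Hba-x and Hba-a1, 74.4% between Hbb-y and Hbb-bs, and 76.4% between Hbb-y and Hbb-bh1, and no 50-base stretch in common. Values for Hba-a1, Hba-a2, Hbb-bs and Hbb-bt taken singly are therefore uncertain, and the sum of a pair is used where the adult chains are compared with the embryonic ones.

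The deposited values stood for whole numbers of reads, which came to between 18192629 and 25597662 per library. Levels are given as CPM, the reads of a gene in 1000000 reads of its library. Dnmt1 itself was at 399 to 479 CPM in Dnmt1KO and 524 to 544 in WT, and each Dnmt1KO library lay below each WT library, without passing the test (log2 fold change -0.31 ± 0.09 SE, limma adjusted p = 0.507). Dnmt1KO replicate 1 held 3 reads over the Y-linked genes Ddx3y, Eif2s3y, Kdm5d and Uty and the other 5 libraries 4155 to 5207. That library was therefore no technical repeat of the others in its group. Gata1 and Alas2 are X-linked, so their values without that library are given. Reads were looked up for 8 lung epithelium markers, among them Nkx2-1 and Epcam, and 8 lung mesenchyme markers, among them Tbx4 and Foxf1. All 16 had reads in every library. At most 19 of the 14162 genes were at 0 reads in a library, so this does not test the tissue label.

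Hbb-y was the most abundant of the 9 genes in every library. Levels between genes were compared as CPM per kilobase of coding sequence, written RPKM, with coding lengths from GENCODE M21. Reads in untranslated regions were not separated. Over the 6 libraries the mean level was 2446 RPKM for Hbb-y (range 1528 to 3463), 1035 for Hba-x (636 to 1703), 821 for Hba-a1 (548 to 1259), 209 for Hba-a2 (114 to 318) and 198 for Hbb-bh1 (135 to 321). The other genes followed at 28.2 RPKM for Slc4a1 (15.3 to 52.9), 16.1 for Alas2 (9.89 to 28.2), 2.35 for Klf1 (1.66 to 3.83) and 1.62 for Gata1 (1.14 to 2.07). Within a library, Hbb-y stood above Hba-x in 6 of 6, whereas Hba-x stood above Hba-a1 in 4 of 6 and Hba-a2 above Hbb-bh1 in 2 of 6, so neither of these neighbours was separated from the next beyond the spread. Klf1 was above Gata1 in 5 of 6. The ranges did not overlap between Hba-a1 and Hba-a2, between Hbb-bh1 and Slc4a1, or between Alas2 and Klf1. The gap between Hba-a1 and Hba-a2 is uncertain, because reads of this near-identical pair are hard to tell apart.

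**Figure D1:**
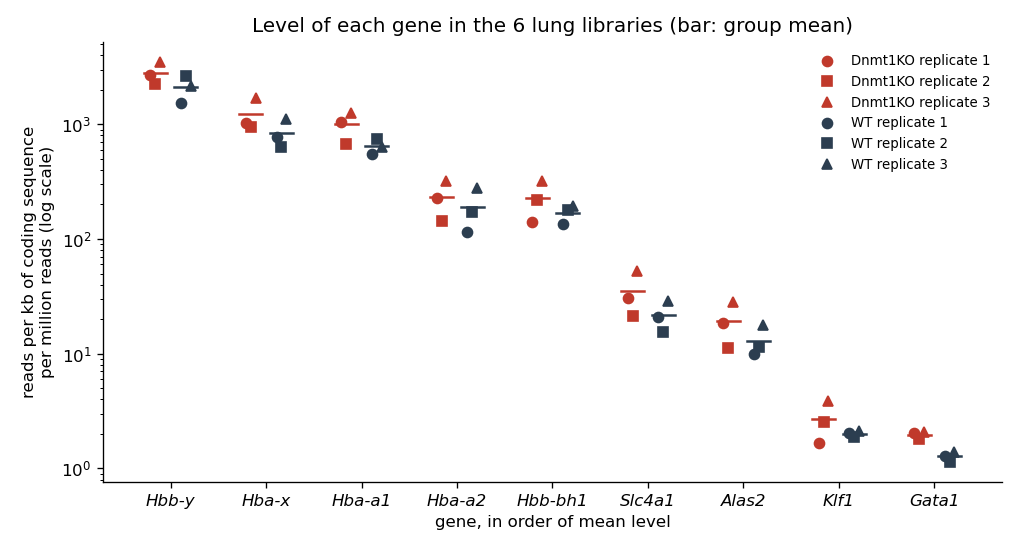
Level of the 9 genes in each library, in RPKM on a log axis, with genes in order of mean level, Dnmt1KO in red, WT in dark blue, a symbol for each replicate number and a bar at each group mean. Globins lie above 100 and the transcription factors below 4, and Dnmt1KO replicate 3 is the highest point for each gene.

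None of the 9 genes passed the test between Dnmt1KO and WT, and all 9 had a positive log2 fold change, between 0.29 and 0.62. Limma with Benjamini-Hochberg adjustment over all 14162 genes called 0 of the 9 at an adjusted p under 0.05, where 0.290% of all genes were called, and the adjusted p ran from 0.949 to 1. At an unadjusted p under 0.05 there were 2, Hba-a1 and Gata1, with 4.52% of all genes at that level, and voom on the recovered reads also called 0 (background 0.226%). The 2 became 6 without Dnmt1KO replicate 2, 1 without Dnmt1KO replicate 1 or WT replicate 3, and 0 without Dnmt1KO replicate 3 or WT replicate 1. The share of all genes was not counted in these fits, so the changes in count may not be particular to the 9 genes. The 9 log2 fold changes had a median of 0.51, against -5.88e-05 over all genes, of which 7076 were positive. That median rested in good part on Dnmt1KO replicate 3, which was the highest library for 9 of the 9 genes, and it was 0.25 without that library. WT replicate 1 was the lowest for 5, WT replicate 2 for 3 and Dnmt1KO replicate 1 for 1. Without WT replicate 1 the median was 0.33.

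**Figure D2:**
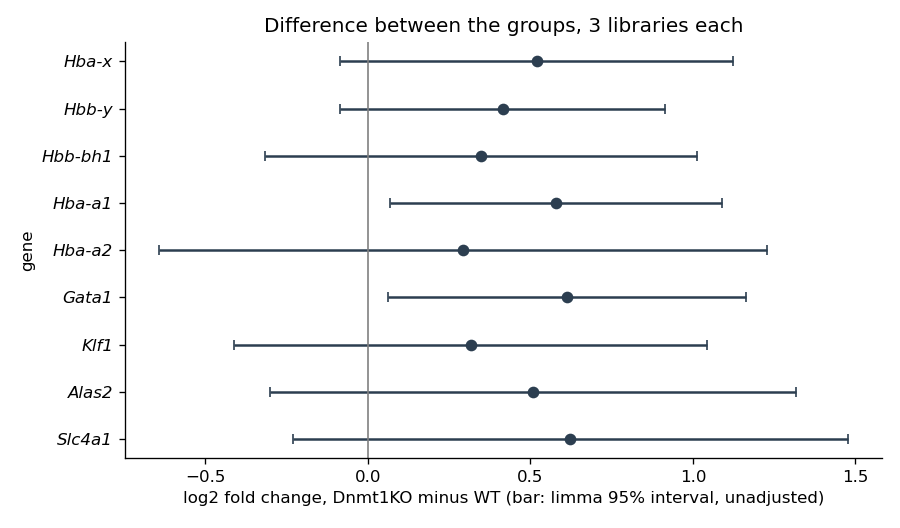
Log2 fold change of each gene, Dnmt1KO minus WT, as points with limma's 95% intervals not adjusted for the number of genes tested, from 3 libraries a group. All points lie right of 0, and the intervals of Hba-a1 and Gata1 leave 0 out.

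Hba-x, the embryonic alpha-like chain, was at 439, 406 and 726 CPM in Dnmt1KO replicates 1, 2 and 3 and at 332, 271 and 472 in WT replicates 1, 2 and 3. WT replicate 3 was above 2 of the Dnmt1KO libraries, so the groups overlapped. The log2 fold change was 0.52 ± 0.26 (SE, n = 3 each, limma adjusted p = 1, unadjusted 95% interval -0.085 to 1.12), and 0.26 without Dnmt1KO replicate 3. Hbb-y, the main embryonic beta-like chain, was at 1181, 994 and 1527 CPM against 674, 1152 and 945. Here WT replicate 2 was among the higher libraries and WT replicate 1 was the lowest. Its log2 fold change was 0.42 ± 0.22 (limma adjusted p = 1, interval -0.085 to 0.92), and 0.20 without WT replicate 1. Hbb-bh1, the beta-like chain of the earliest primitive cells, was at 62.4, 96.2 and 142 against 59.6, 78.7 and 85.3 CPM. Dnmt1KO replicate 1, high for Hbb-y, was low for Hbb-bh1. The log2 fold change of Hbb-bh1 was 0.35 ± 0.28 (limma adjusted p = 1), and 0.058 without Dnmt1KO replicate 3.

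Hba-a1 was at 448, 289 and 536 CPM in Dnmt1KO and at 233, 320 and 270 for WT. Only Dnmt1KO replicate 2 fell within the WT range. The log2 fold change was 0.58 ± 0.22 (limma adjusted p = 0.949, interval 0.067 to 1.09). It was 0.39 without Dnmt1KO replicate 3, where the unadjusted p was 0.122. Hba-a2 was at 96.9, 61.6 and 136 CPM against 48.8, 73.1 and 119, a log2 fold change of 0.29 ± 0.39 (limma adjusted p = 1, interval -0.64 to 1.23). Its sign turned without WT replicate 1, to -0.022. The Hba-a1 reads were 4.62, 4.69 and 3.95 times those of Hba-a2 in Dnmt1KO and 4.79, 4.38 and 2.26 times for WT, with WT replicate 3 apart from the other 5. The division of reads within this near-identical pair is uncertain, and no fold change of their sum was fitted.

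Gata1, the X-linked zinc finger factor needed for red cell differentiation, had 46, 45 and 54 reads in Dnmt1KO, against 41, 29 and 40 for WT. That was 2.53, 2.24 and 2.57 against 1.60, 1.41 and 1.73 CPM. It was the only 1 of the 9 genes in which each Dnmt1KO library lay above each WT library, a pattern found in 4.79% of all genes. The log2 fold change was 0.61 ± 0.24 (limma adjusted p = 0.968, interval 0.061 to 1.16), and 0.59 without Dnmt1KO replicate 1. Counting error is large at this depth, since the exact Poisson 95% interval of Dnmt1KO replicate 2 was 1.63 to 2.99 CPM and that of WT replicate 3 was 1.23 to 2.35. These intervals cover counting error only.

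Klf1, the factor that binds CACCC boxes and activates adult beta globin, had 34, 58 and 91 reads in Dnmt1KO, against 59, 44 and 55 for WT. The Dnmt1KO libraries held both the lowest and the highest of the 6 levels, 1.87 and 4.32 CPM, while WT spanned 2.14 to 2.37. The log2 fold change was 0.32 ± 0.32 (limma adjusted p = 1) and 0.020 without Dnmt1KO replicate 3.

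Alas2, the red cell form of the first enzyme of haem synthesis, was at 32.8, 19.7 and 49.7 CPM in Dnmt1KO and 17.4, 19.95 and 31.1 in WT. The groups overlapped, with Dnmt1KO replicate 2 close to the lowest WT libraries. Its log2 fold change of 0.51 ± 0.35 (limma adjusted p = 1, interval -0.30 to 1.32) became 0.18 without Dnmt1KO replicate 3 and stayed positive, at 0.49, without Dnmt1KO replicate 1. Slc4a1, band 3 of the red cell membrane, was at 85.4, 59.0 and 148 CPM against 57.8, 42.7 and 79.8. It had the largest log2 fold change of the 9, 0.62 ± 0.36 (limma adjusted p = 1, interval -0.23 to 1.48), which was 0.27 without Dnmt1KO replicate 3.

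Embryonic chains made up most beta-like globin reads and about as many of the alpha-like reads as the adult chains, with like shares in both groups. Coding lengths are equal within each family, so shares of reads are used. Among beta-like reads Hbb-y took 81.9%, 82.6% and 77.2% in Dnmt1KO replicates 1, 2 and 3 and 82.6%, 79.1% and 80.5% in WT replicates 1, 2 and 3. Hbb-bh1 took 4.33%, 7.99% and 7.16% against 7.31%, 5.41% and 7.27%. Adult beta, Hbb-bs plus Hbb-bt, took 13.8%, 9.45% and 15.6% against 10.1%, 15.5% and 12.2%, and both groups spanned nearly the same range. Hba-x took 44.6%, 53.6% and 51.9% of alpha-like reads in Dnmt1KO and 54.1%, 40.8% and 54.8% in WT. WT replicate 2 and Dnmt1KO replicate 1 had the lowest Hba-x shares. The Wilson 95% intervals of these shares were at most 1.65 percentage points wide, so the largest differences between libraries of a group exceeded counting error.

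**Figure D3:**
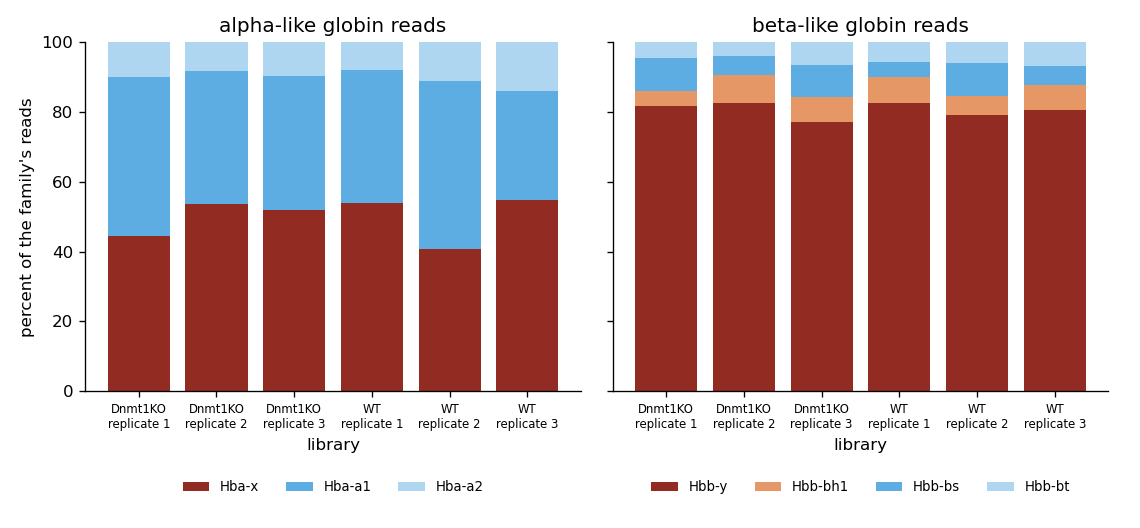
Share of each gene among alpha-like (left) and beta-like (right) globin reads, in percent, stacked for each of the 6 libraries, with embryonic genes in red and orange and adult genes in blue. Hbb-y fills 77.2% to 82.6% of the beta-like bars, and Hba-x 40.8% to 54.8% of the alpha-like bars.

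Ratios between globin genes did not differ between the groups beyond the spread between libraries. One pair of ratios set an embryonic gene against the adult genes of its family, and the other two compared embryonic genes with each other. Of 4 log2 ratios tested with exact two-sided permutation tests, none approached the smallest p that 3 libraries against 3 allow, which is 0.1, and after Benjamini-Hochberg adjustment over the 4 each p was 1. Hbb-y to adult beta was 2.67 ± 0.42 in Dnmt1KO and 2.71 ± 0.34 in WT (log2, SD, n = 3), a difference of -0.038 ± 0.31 (SE, exact p = 0.9). Hba-x to adult alpha was 0.0030 ± 0.28 against -0.0080 ± 0.46, a difference of 0.011 ± 0.31 (exact p = 1). Hbb-y to Hbb-bh1 was 3.68 ± 0.49 against 3.61 ± 0.22, a difference of 0.068 ± 0.31 (exact p = 1). Hba-x to Hbb-y was -1.27 ± 0.18 against -1.37 ± 0.62, a difference of 0.10 ± 0.37 (exact p = 1). WT replicate 2 set the wide WT spread of the last ratio, with 0.235 Hba-x reads for each Hbb-y read against 0.372 or more in the other 5 libraries. Because the smallest possible p was 0.1, the permutation tests could not have called a shift of any size at the threshold used for genes. No conclusion is drawn from their p-values. As a description, each difference was smaller than its standard error, and standard errors of this size would hide small shifts in either direction.

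Summed over Hba-x, Hba-a1, Hba-a2, Hbb-y, Hbb-bh1, Hbb-bs and Hbb-bt, globins took 0.243%, 0.196% and 0.338% of reads in Dnmt1KO and 0.143%, 0.212% and 0.204% for WT. The group means were 0.259% ± 0.072 and 0.186% ± 0.038 (SD, n = 3), and the groups overlapped.

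The other red cell genes were described from 7 lists, which hold 77 measured genes with 4 of the 9 genes above among them. Limma called none of the 77, with 8 at an unadjusted p under 0.05, and 60 of the 77 (77.9%) had a positive log2 fold change. Over all genes 4.52% were at that level and 49.96% were positive. The 8 became 5 when Dnmt1KO replicate 3 was left out, 12 when Dnmt1KO replicate 2 was, 3 after quantile normalization and 2 of 56 among genes above the lowest 25%. For these fits, too, the share of all genes was not counted. The median of the 77 was 0.12, and no list had a gene called higher or lower. The red cell membrane and skeleton list stood highest, with 16 of 17 positive and a median of 0.64. Its genes with the smallest p that were not yet described were Tspo2, a membrane protein gene of erythroblasts (log2 fold change 1.35 ± 0.44, limma adjusted p = 0.684), and Rhd, of the Rhesus blood group complex (0.81 ± 0.30, adjusted p = 0.857). Tspo2 was a low-count gene, with a mean log2 value of 5.87 in WT, below the 7.36 of Gata1. Relative to the WT mean, the list's median by library was 0.19, 0.29 and 1.22 for Dnmt1KO replicates 1, 2 and 3, and 0.13, -0.41 and 0.28 for WT replicates 1, 2 and 3. Leaving out Dnmt1KO replicate 3 lowered this median to 0.32, and leaving out WT replicate 2 to 0.37. It was 0.35 under sample weights and 0.39 among the 11 genes above the lowest 25%.

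The medians of the next 4 lists lay close to 0. Of 19 erythroid transcription factors 12 were positive, with a median of 0.052 that turned to -0.022 without WT replicate 3. As the other libraries were left out one by one it lay between 0.024 (Dnmt1KO replicate 1) and 0.18 (WT replicate 1), and it was 0.0093 after quantile normalization. Of the 19 factors, Gata1 included, 4 had an unadjusted limma p under 0.05, a level reached by 4.52% of all genes. Likewise 4 had each Dnmt1KO library above each WT library, a pattern found in 4.79% of all genes. Haem synthesis, iron uptake and erythropoietin signalling had 0 genes at that unadjusted p. Gfi1b, a repressor in red cell and platelet precursors, was at 1.06 ± 0.39 (limma adjusted p = 0.858), and Nfe2, a factor of the globin locus control region, at 0.58 ± 0.22 (adjusted p = 0.911). Counts of Gfi1b were low, with 21, 23 and 35 reads in Dnmt1KO replicates 1, 2 and 3, against 11, 13 and 19 for WT. Haem synthesis had 7 of 10 positive and a median of 0.063, which turned to -0.0067 when Dnmt1KO replicate 3 was left out and to -0.0042 under sample weights, with Cpox at 0.22 ± 0.10 and Alad, an early enzyme of the pathway, at -0.16 ± 0.13 (limma adjusted p = 1 for both). Iron uptake had 6 of 7 positive and a median of 0.057, which ran from 0.017 (WT replicate 1 left out) to 0.13 (WT replicate 2 left out), with the iron transporter gene Slc11a2 at -0.15 ± 0.09 and the mitochondrial importer gene Slc25a37 at 0.14 ± 0.13 (limma adjusted p = 1 for both). Erythropoietin signalling had 6 of 9 positive and a median of 0.060. This turned to -0.012, with 3 of 6 positive, among genes above the lowest 25%, and ran from 0.025 (Dnmt1KO replicate 1 left out) to 0.14 (Dnmt1KO replicate 2 left out). The list's named genes were the receptor gene Kit at 0.32 ± 0.19 and Socs2 at -0.21 ± 0.14 (limma adjusted p = 1 for both).

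Among red cell enzymes and maturation genes 10 of 12 were positive, with a median of 0.11. Leaving out Dnmt1KO replicate 3 gave 0.038 with 7 of 12 positive, and leaving out WT replicate 1 gave 0.060 with 8 of 12. It was 0.16 when Dnmt1KO replicate 2, WT replicate 2 or WT replicate 3 was left out, 0.052 under sample weights and 0.046 among the 8 genes above the lowest 25%. Pklr, the pyruvate kinase gene of liver and red cells, had 45, 31 and 47 reads in Dnmt1KO, against 31, 12 and 19 for WT. Each Dnmt1KO library lay above each WT library after scaling, and the log2 fold change was 1.26 ± 0.37 (limma adjusted p = 0.533). Trim10, a gene of late erythroblasts, was at 0.69 ± 0.30 (limma adjusted p = 1). The list of adult globins and their chaperone had 3 of 8 genes measured, all positive, with a median of 0.39. Hbb-bs was at 0.75 ± 0.60, Hbq1b at 0.39 ± 0.50 and Hbb-bt at 0.11 ± 0.40 (limma adjusted p = 1 for each). The median of the 3 was -0.10 without Dnmt1KO replicate 3, 0.74 without Dnmt1KO replicate 2, 0.14 after quantile normalization and 0.14 under sample weights.

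Markers of other cells were read beside these results. Hepatocyte markers, 4 of 8 measured, summed to 14.9 to 28.6 CPM in Dnmt1KO and 3.01 to 5.29 in WT, so the groups did not overlap. Of these 4, 3 had every Dnmt1KO library above every WT library, a pattern found in 4.79% of all genes, and Alb did not. Apob, Alb and Apoa1 were low in WT, with mean log2 values of 3.76, 4.85 and 5.79. The lowest gene total in the data was 60 reads, so such genes may be measured only through their Dnmt1KO reads. The sums and the count of 3 are therefore partly set by which genes were measured, and no conclusion is drawn from them. Alb had 12, 101 and 101 reads against 5, 19 and 2, and Afp 426, 201 and 174 against 56, 74 and 63. Neither passed limma's test (adjusted p = 0.625 and 0.0879). Dnmt1KO replicate 3, the highest library for the 9 genes, had the lowest hepatocyte sum and the fewest Afp reads of its group. Its Alb reads equalled those of Dnmt1KO replicate 2 and exceeded those of Dnmt1KO replicate 1. Megakaryocyte and platelet markers, 8 of 8 measured, summed to 48.5 to 99.4 in Dnmt1KO against 56.6 to 62.0, with the highest value in Dnmt1KO replicate 2. Macrophage markers, 10 of 10 measured, summed to 152 to 160 against 155 to 166, and endothelial markers, 8 of 8 measured, to 595 to 787 against 491 to 743 with the lowest value in WT replicate 2. Heart muscle markers, 6 of 7 measured, summed to 33.7, 431 and 92.2 in Dnmt1KO replicates 1, 2 and 3, with WT between 43.4 and 73.6. No measured marker was at 0 reads in any library. The part of these cells in the red cell values was not tested.

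**Figure D4:**
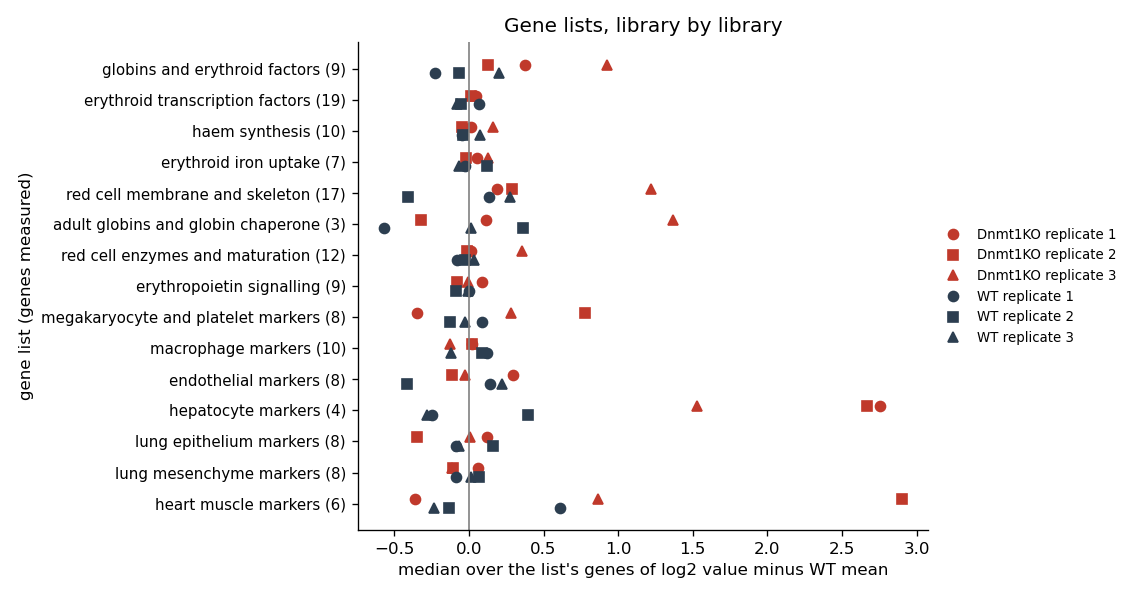
Median over each gene list of the log2 value minus its WT mean, with 1 point per library, Dnmt1KO in red and WT in dark blue, and the number of genes measured in brackets. Dnmt1KO replicate 3 stands at 0.93 for the 9 genes and 1.22 for the membrane list, and the hepatocyte list separates the groups. Some hepatocyte genes may be measured only through their Dnmt1KO reads.

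Among 13833 named genes on none of the lists, those whose values over the 6 libraries followed the mean of the 9 genes most closely were Pfkfb1 (Pearson's r = 0.993), a regulator of glycolysis, Rlim (0.990), Tmem18 (0.984), Mrpl10 (0.984), Nucb2 (0.979), Kyat1 (0.979), 1700008O03Rik (0.973) and Gemin8 (0.971). They were picked as the highest of that many over 6 points, so r is a description. Their log2 fold changes ran from 0.071 for Mrpl10 to 0.30 for 1700008O03Rik, and none passed limma's test.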

How the data were processed

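Each library's deposited table pairs Ensembl identifiers with values in a column headed SIGNAL, per the file headers. The headers give no unit, and the deposited values were read as log2 from their range and steps. STAR, limma and mm9 are named in the submitters' processing notes, without versions or roles. The read counter, annotation, gene filter, scaling and read length are not stated in those notes. Raising 2 to each value gave whole reads plus 0.5, times a constant of the library, for 100% of genes within 1e-06 reads. CPM values use the totals of these reads. The lowest gene total was 60 reads.

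Symbols came from GENCODE M21 (GRCm38) by identifier, for 13967 of 14162 genes. RefSeq promoters matched 7 of the 9 genes. The deposited log2 values of all genes were fitted with limma 3.58.1 (R 4.3.3), with genotype as the only term, trend and robust estimation, and Benjamini-Hochberg adjustment. Ratios were tested by exact permutation. On 3 simulated data sets of 14162 genes with 200 changed, the fit found 40.0% of 1.5-fold changes, 92.7% of 2-fold changes and 100% of 4-fold changes, with 4.17% of its calls false. The simulated spread between libraries was preset, the same for all genes, and not estimated from these data. These shares therefore check the fit and do not give the power for the 9 genes. Named genes were the 9, the 2 others of each red cell list with the smallest p, and the 8 most alike. Hbb-bt, Dnmt1, Alb, Afp, Apob and Apoa1 were added after their values were seen. The genes and lists were chosen with earlier results of these data known.

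No label says what a replicate number marks, and the libraries were treated as unpaired. The alternatives are named with their effect in the closing section.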

Additional observations from a re-analysis of the deposited data

How the results depend on the processing

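Of 16 alternatives for the count of the 9 genes called and for the 77 listed genes, each gave 0. They were the replicate number as a block, quantile normalization, dropping the lowest 25% of genes, median centring, totals with and without red cell genes, no trend or robust estimation, sample weights, voom, an offset of 5 reads and leaving out each library. Dropping the lowest 25% of genes left 7 of the 9, without Gata1 and Klf1. The median of the 9 genes ran from 0.25 (without Dnmt1KO replicate 3) to 0.67 (without Dnmt1KO replicate 2) and was 0.25 with sample weights. Hba-a2 turned to -0.17 with those weights, and ran from -0.022 (without WT replicate 1) to 0.62 (without WT replicate 3) as libraries were left out.

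Each of the 4 ratios changed sign as libraries were left out. As each library was left out, Hba-x to adult alpha ran from -0.25 to 0.17, Hba-x to Hbb-y from -0.25 to 0.29, Hbb-y to adult beta from -0.27 to 0.14 and Hbb-y to Hbb-bh1 from -0.21 to 0.22. As a difference of medians they were -0.12 for Hba-x to adult alpha, -0.27 for Hba-x to Hbb-y, -0.069 for Hbb-y to Hbb-bh1 and -0.15 for Hbb-y to adult beta, of which the last kept its sign. The cause was not tested.

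Same-numbered libraries had deviations correlated at -0.0027, -0.18 and 0.31, and no label ties a number to a litter or batch, so the libraries were treated as unpaired. Whether some share a litter was not tested. With the replicate block 0 of the 9 genes were called, and 4 had an unadjusted p under 0.05. They were Hba-x, Slc4a1, Alas2 and Hbb-bh1, with limma adjusted p = 0.0893, 0.111, 0.868 and 0.868. Neither Hba-a1 nor Gata1, which had that level without the block, was among them (limma adjusted p = 1 and 0.925). Of the 77 listed genes, 17 had an unadjusted p under 0.05 with the block, against 8. The share of all genes at that level was not counted for the fit with the block. The counts of 4 and 17 are therefore not read as a result about red cell genes. Among the 9 genes, depth limits Gata1 and Klf1, with 29 to 91 reads per library, most.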

Other observations

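Reads of Hbb-bs were 2.08, 1.36 and 1.38 times those of Hbb-bt in Dnmt1KO replicates 1, 2 and 3, and 0.789, 1.62 and 0.818 times in WT replicates 1, 2 and 3. The order of this near-identical pair thus differed between WT libraries. Beta-like globins summed to 1.42, 1.54 and 1.37 times the alpha-like globins (RPKM) in Dnmt1KO and to 1.28, 2.12 and 1.31 times for WT, with WT replicate 2 the highest of the 6. The same library had the lowest Hba-x share of alpha-like reads, 40.8%.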
